A study of Homo sapiens with 8 samples.

Results

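The genes described here lie in 2 stretches of the short arm of human chromosome 1, one running from EVI5 to NTNG1 and the other from DRAM2 to GDAP2. Every protein-coding gene that starts within either stretch and is named on the array was taken, apart from 1 gene left out of the choice, and for each gene the brightest probe set over the 8 arrays was used. This gave 65 genes of the 14884 measured, and of the 118 protein-coding genes that RefSeq annotates in the stretches 53 were not named on the array. The stretch EVI5-NTNG1 held 28 members and DRAM2-GDAP2 held 37. Members with a mean log2 level above 5.8 were kept apart from the rest, since low signals on an array carry little information. There were 39 above this level (20 in EVI5-NTNG1 and 19 in DRAM2-GDAP2) and 26 at or below it (8 and 18). The stretches were chosen by the A673 hairpin differences of their genes, many of which were lower under shRING1B, so the A673 values below are a description and were not tested.

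Gene expression was measured in SK-ES1 and A673, established cell lines from Ewing sarcoma, a tumour of bone and soft tissue whose driver is a fused protein of EWSR1 and an ETS factor. Cells of each line expressed either a hairpin that targets RING1B (shRING1B) or one that targets GFP as a control (shGFP), so every group carried a hairpin. There were 4 groups of 2 arrays each. Nothing in the labels says that the 2 arrays of a group were separate cultures, and p-values then measure only how far these samples spread, which may be technical.

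RING1B is the ubiquitin ligase of Polycomb repressive complex 1, which marks histone H2A and silences genes of development. Genes that follow each other on a chromosome share a stretch of chromatin, yet most neighbours have unrelated functions and promoters of their own. The members show this mixture: they include splicing and tRNA enzymes, regulators of small GTPases, glycosylation and lipid enzymes, centriole and telomere proteins, membrane receptors and proteins of neurons.

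The values are log2 levels after RMA, a method that corrects background and gives all arrays one distribution. Array medians lay between 4.01 and 4.10. Within a group the arrays correlated at 0.9911 to 0.9937 over all genes, and the highest correlation between arrays of different groups was 0.9918. Of the Ewing sarcoma markers, CD99, NKX2-2 and STEAP1 were above 5.8 in both lines, while CCK and GLI1 were below it. The 2 leukocyte, 3 epithelial and 2 endothelial markers measured were all below 5.8 in both lines. Of the 3 skeletal muscle markers MYOD1 and MYOG were below 5.8 in every group. DES averaged 6.002 in SK-ES1 shRING1B and 5.83 in SK-ES1 shGFP cells, and 6.08 in A673 shRING1B, against 5.27 in A673 shGFP cells. DES thus differed between the A673 hairpins, the comparison that chose the members, and its part in their values was not tested. RNF2, which encodes RING1B, was not analysed here, and the hairpin labels were not checked against their target. In bulk RNA, fewer cells of a type and less RNA per cell cannot be told apart.

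In A673, 33 of the 39 members above 5.8 (84.6%) had a lower mean in shRING1B than in shGFP cells, with a median log2 difference of -0.45 and a range of -1.57 to 0.42. Among the other 5876 protein-coding genes above 5.8, 2703 (46.0%) were lower, with a median of 0.02. In EVI5-NTNG1, 16 of 20 were lower with a median of -0.50, and in DRAM2-GDAP2 17 of 19 were lower with a median of -0.42. In 32 of the 39 both shRING1B arrays lay below both shGFP arrays, in 5 both lay above, and in DPYD and CEPT1 the arrays overlapped. Arrays were apart in this way in 26.6% (lower) and 32.5% (higher) of protein-coding genes above 5.8. The values are those that chose the members, so nothing is read from them here.

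**Figure D1:**
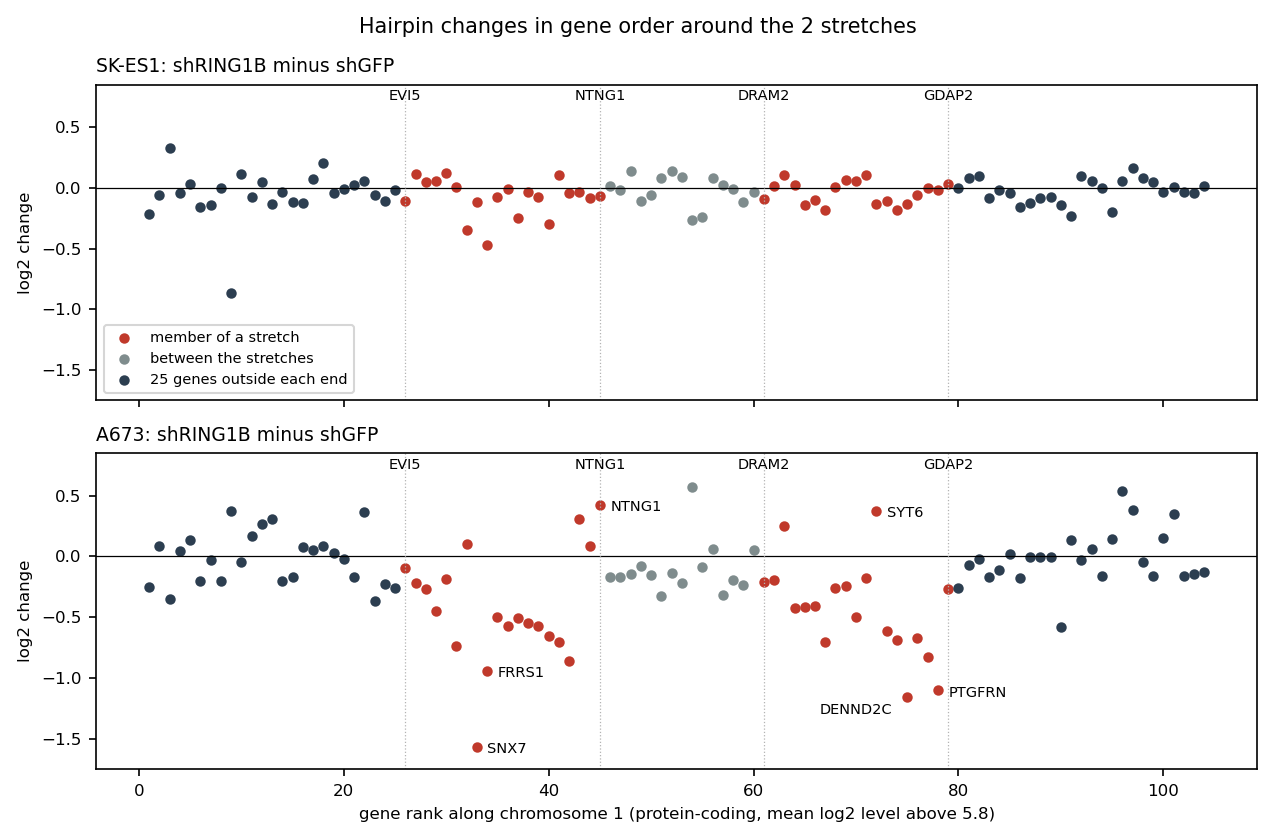
Log2 difference between shRING1B and shGFP (vertical axis) for protein-coding genes with a mean log2 level above 5.8, in their order along chromosome 1 (horizontal axis, rank), in SK-ES1 (upper panel) and A673 (lower panel). Red points are the 39 members, grey points the 15 genes between the stretches and dark points the 25 genes outside each end. In A673 33 of the 39 members lie below 0, and in SK-ES1 25 do, close to the zero line.

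The largest A673 difference was that of SNX7, a sorting nexin of the endosomal membrane. Its log2 level was 5.59 and 5.81 in A673 shRING1B cells, against 6.97 and 7.56 in A673 shGFP cells. The groups did not overlap, and the difference was -1.57. Its standard error of 0.18 came from the limma fit to all 8 arrays, which pools the spread of the 4 groups. The SD of SNX7 was 0.16 in A673 shRING1B and 0.42 in A673 shGFP cells. It was 0.03 in SK-ES1 shRING1B and 0.006 in SK-ES1 shGFP cells. FRRS1, a ferric reductase, read 5.05 and 5.18 in shRING1B and 5.90 and 6.21 in shGFP cells. It differed by -0.94, and again every shRING1B array was below every shGFP array. FRRS1 averaged 5.59 in A673, below 5.8, and 6.87 in SK-ES1. DPH5, which makes the modified histidine diphthamide on elongation factor 2, read 5.89 and 6.02 in shRING1B cells, against 6.72 and 6.91 in shGFP cells, a difference of -0.86. PTBP2, a splicing regulator best known from neurons, differed by -0.74, with 7.80 and 7.87 in shRING1B and 8.39 and 8.75 in shGFP cells. EXTL2, a glycosyltransferase of the heparan sulfate linker, and the phosphatase gene CDC14A differed by -0.70 and -0.66.

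In DRAM2-GDAP2 most of the largest differences lay close together, between TRIM33 and PTGFRN. DENND2C, an exchange factor for Rab GTPases, read 6.66 and 6.67 in A673 shRING1B cells, against 7.67 and 7.99 in A673 shGFP cells. Its difference of -1.16 had a standard error of 0.13, from the same fit to all 8 arrays. PTGFRN, an immunoglobulin-domain partner of tetraspanins, read 7.05 and 6.90 in shRING1B cells, against 8.12 and 8.04 in shGFP cells, a difference of -1.10. The pairs of arrays were well apart for both genes. CD58, the ligand of the T cell surface protein CD2, averaged 5.76 ± 0.346 in shRING1B cells, against 6.58 ± 0.287 in shGFP cells (SD, n = 2 each), a difference of -0.82. BCAS2, a component of the spliceosome, read 8.53 and 8.67 in shRING1B cells, against 9.19 and 9.40 in shGFP cells, a difference of -0.69. SIKE1, a suppressor of the kinase IKK-epsilon, differed by -0.67 and PHTF1 by -0.70. The arrays of these 4 genes did not overlap either.

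**Figure D2:**
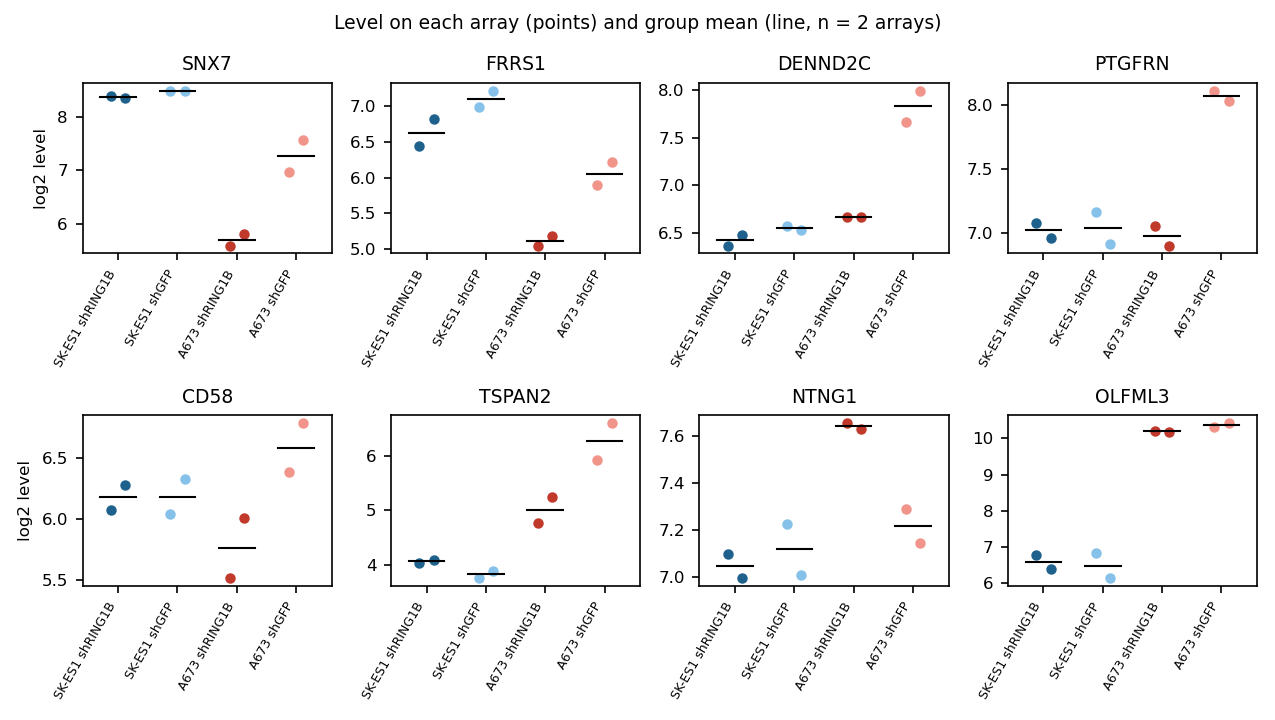
Log2 level (vertical axis) of 8 members on each of the 8 arrays, by line and hairpin (horizontal axis), with a line at each group mean. SNX7, FRRS1, DENND2C, PTGFRN, CD58 and TSPAN2 are lower in A673 shRING1B than in A673 shGFP, NTNG1 is higher, and OLFML3 differs by -3.74 between the lines.

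The promoters of the member above 5.8 with the largest A673 difference in each stretch are shown first, with every CG dinucleotide in capitals, since promoters of broadly expressed genes are mostly rich in it. Next come the only members whose promoter window held the tandem ETS core GGAAGGAA, searched on both strands and given in capitals. ETS factors such as FLI1 recognise a GGAA core. All windows run 5′ to 3′ from 250 bases before to 50 bases after the RefSeq start, on GRCh38.p14.
SNX7, chr1:98661471-98661770, plus strand: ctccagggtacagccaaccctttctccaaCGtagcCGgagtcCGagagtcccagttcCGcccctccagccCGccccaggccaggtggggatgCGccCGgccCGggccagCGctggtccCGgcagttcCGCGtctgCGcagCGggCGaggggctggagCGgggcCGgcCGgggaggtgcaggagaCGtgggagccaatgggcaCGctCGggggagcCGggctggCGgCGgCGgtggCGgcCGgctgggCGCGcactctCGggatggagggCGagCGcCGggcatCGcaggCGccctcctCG
DENND2C, chr1:114670000-114670299, minus strand: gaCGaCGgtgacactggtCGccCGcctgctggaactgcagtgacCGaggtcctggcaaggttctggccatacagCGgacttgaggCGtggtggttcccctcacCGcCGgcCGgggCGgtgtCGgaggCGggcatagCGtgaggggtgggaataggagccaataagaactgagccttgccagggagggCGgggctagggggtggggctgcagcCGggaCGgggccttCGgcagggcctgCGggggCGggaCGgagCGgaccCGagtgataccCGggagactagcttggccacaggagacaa
NTNG1, chr1:107140789-107141088, plus strand: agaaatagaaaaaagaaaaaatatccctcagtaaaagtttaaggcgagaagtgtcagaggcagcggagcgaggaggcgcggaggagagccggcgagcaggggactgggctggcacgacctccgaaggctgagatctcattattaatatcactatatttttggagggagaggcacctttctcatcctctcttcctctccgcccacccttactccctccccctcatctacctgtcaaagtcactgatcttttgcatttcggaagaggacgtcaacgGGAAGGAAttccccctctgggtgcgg
TSPAN2, chr1:115089454-115089753, minus strand: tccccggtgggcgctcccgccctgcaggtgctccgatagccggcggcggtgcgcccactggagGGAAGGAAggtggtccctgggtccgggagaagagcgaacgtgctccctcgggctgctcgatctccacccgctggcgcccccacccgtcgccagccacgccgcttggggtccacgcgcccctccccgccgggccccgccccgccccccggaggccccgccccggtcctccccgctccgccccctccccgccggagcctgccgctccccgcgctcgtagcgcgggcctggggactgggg

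The SNX7 window held 36 CG dinucleotides and that of DENND2C 24. Promoters were found for 38 of the 39 members above 5.8 and 24 of the 26 at or below it, some with several starts. The median count of CG per window was 25 for the members above 5.8, beside 26 for other protein-coding genes above 5.8. It was 7.5 for the members at or below 5.8, beside 14 for all windows (quartiles 4 and 28). GGAAGGAA was in 1 of 51 windows (1.96%) of the members above 5.8 and in 1 of 40 (2.5%) of the others, against 3.67% of all 35116 windows. It began at base 275 of the NTNG1 window, 1 of the 3 windows of that gene, and at base 64 of the TSPAN2 window. TATAAA was in 3.92% of the windows of the members above 5.8, against 5.47% for other protein-coding genes above 5.8, and in 15% of those of the members at or below it, against 11.53% of all windows. The matches describe letters only. Genes above 5.8 in the stretches were also long, with a median span of 59.1 kb, against 30.4 kb for other protein-coding genes above 5.8.

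By role, all 5 regulators of growth and small GTPases above 5.8 were lower in A673 shRING1B cells, with a median of -0.45, and so were the 4 genes of the cell cycle, DNA and centrosome, with a median of -0.42. In the first group FNBP1L, which links CDC42 to actin, read 8.81 and 8.87 in shRING1B cells, against 9.24 and 9.33 in shGFP cells. In the second SASS6, the scaffold of the new centriole, read 8.66 and 8.73 in shRING1B cells, against 9.17 and 9.37 in shGFP cells. DCLRE1B, the Apollo nuclease of telomeres, differed by -0.24. The 4 genes of the cell surface and matrix above 5.8 were lower too, with a median of -0.52, as were the 3 of vesicles and autophagy, with a median of -0.27. Of 11 genes of RNA, ribosome and transcription 9 were lower, with a median of -0.58. Among them TRIM33, a ubiquitin ligase of SMAD signalling, read 9.29 and 9.16 in shRING1B cells, against 9.77 and 9.91 in shGFP cells, and the tRNA methyltransferase TRMT13 read 5.88 and 6.01, against 6.30 and 6.61. Of 6 genes of metabolism and transport 5 were lower, with a median of -0.35, including DBT, a subunit of the branched-chain ketoacid dehydrogenase, at -0.55, and the transporter-family gene SLC71A1 at -0.50.

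The 6 members with a higher mean in A673 shRING1B cells were OLFM3, NTNG1, SYT6, PRMT6, WDR77 and DPYD. They held all 3 neuronal genes above 5.8, whose median was 0.38. NTNG1, a membrane-anchored netrin that guides axons, read 7.65 and 7.63 in shRING1B cells, against 7.29 and 7.14 in shGFP cells. SYT6, a synaptotagmin, read 8.10 and 8.07 in shRING1B cells, against 7.82 and 7.60 in shGFP cells. OLFM3, a secreted olfactomedin of neural tissue, read 8.07 and 8.14 in shRING1B cells, against 7.78 and 7.82 in shGFP cells. In all 3 both shRING1B arrays were the higher pair. WDR77, a partner of the arginine methyltransferase PRMT5, differed by 0.25, and PRMT6, another arginine methyltransferase, by 0.08.

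Along the chromosome the values of the members above 5.8 came in runs. These runs were set after the values were seen. The 12 genes from PTBP2 to DPH5 had a median of -0.62 with 11 lower, while the 5 from EVI5 to ALG14 were all lower but by a median of only -0.22. The 3 genes at the far end, from OLFM3 to NTNG1, were all higher, between 0.08 and 0.42. In the other stretch the 7 genes from DDX20 to HIPK1 lay between -0.70 and -0.24, and the 6 from TRIM33 to PTGFRN between -1.16 and -0.61. OLFML3 and SYT6 lay between these runs, at -0.18 and 0.38. Members at or below 5.8 that lie within the runs were left out. Within PTBP2 to DPH5 they differed by -0.88 (PLPPR5) to 0.32 (PLPPR4), where the 12 genes above 5.8 ranged from -1.57 to 0.10. Within DDX20 to HIPK1 they spread more widely than the genes above 5.8, from -0.56 (ST7L) to 0.19 (RHOC). Within TRIM33 to PTGFRN they did so too, from -1.25 (TSPAN2) to 0.62 (MAB21L3). GDAP2, the last gene, differed by -0.27, but its second and much dimmer probe set differed by 0.01.

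The edges were not sharp in A673. The 2 measured genes outside EVI5, GFI1 and RPAP2, differed by -0.28 and -0.26, and the 2 outside NTNG1, VAV3 and HENMT1, by -0.17 and 0.75. GFI1 and RPAP2 thus differed by more than EVI5 itself at -0.10, and HENMT1 by more than any member that was higher. GFI1, VAV3 and HENMT1 were below 5.8, however, with mean levels of 4.04, 3.53 and 5.62. HENMT1 was higher in SK-ES1 than in A673 by a log2 difference of 4.25, so its A673 level was well below its mean. The nearest genes above 5.8 outside NTNG1, STXBP3 and GPSM2, both differed by -0.17. Outside EVI5 they were RPAP2 and CDC7, at -0.26 and -0.22. Outside DRAM2, LRIF1 and CD53 differed by 0.05 and 0.13, and outside GDAP2, WDR3 and SPAG17 by -0.26 and 0.10. CD53 and SPAG17 had low mean levels too, 3.41 and 3.01. Of the 15 genes above 5.8 between the stretches 12 were lower in shRING1B, with a median of -0.15. The 25 genes before EVI5 had a median of -0.02 with 13 lower, and the 25 after GDAP2 -0.03 with 17 lower. Over 472 other genes of chromosome 1 the median was 0.00 and 234 were lower.

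**Figure D3:**
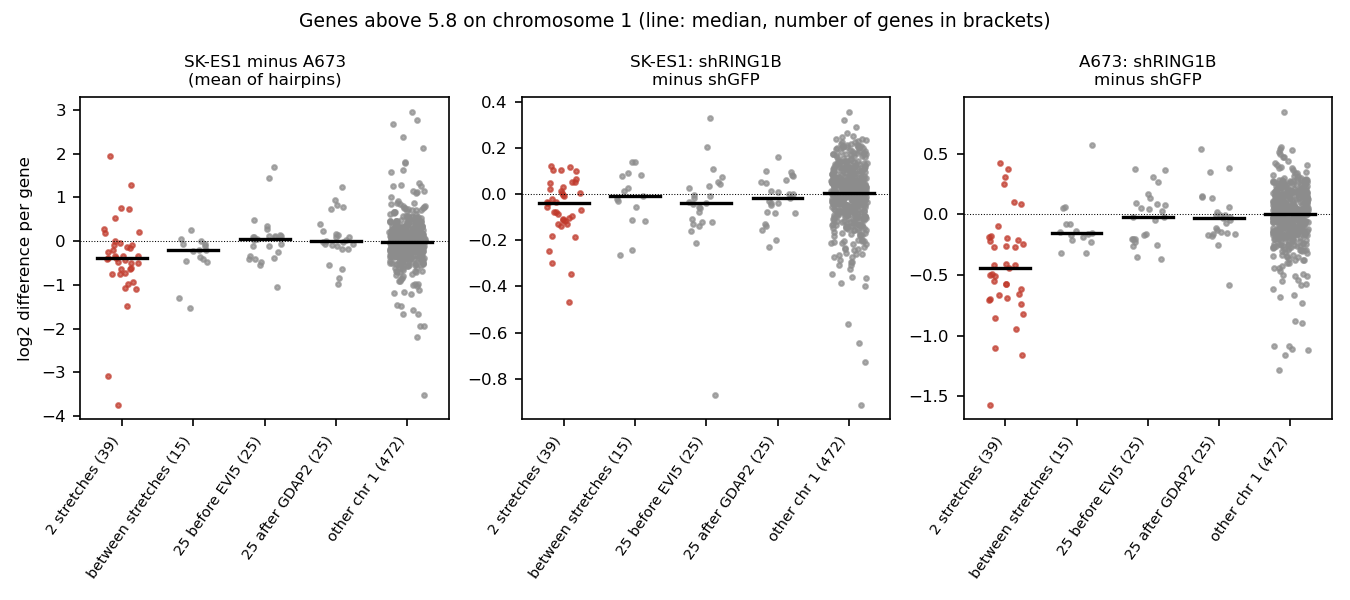
Log2 differences (vertical axis) of protein-coding genes above a mean log2 level of 5.8 in 5 sets on chromosome 1: the 39 members, the 15 genes between the stretches, the 25 before EVI5, the 25 after GDAP2 and 472 others. The panels give SK-ES1 minus A673 over both hairpins, then shRING1B minus shGFP in SK-ES1 and in A673, with a line at each median. The members' medians are -0.38, -0.04 and -0.45.

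By pairs of A673 arrays, which are those that chose the members, the values were as follows. The numbers 1 and 2 follow the order in which a group's arrays are listed and are not in the labels. Taking shRING1B array 1 or 2 against shGFP array 1 or 2, between 32 and 34 of the 39 members were lower, with medians of -0.53 to -0.29. The members also differed between arrays of one A673 group. The second A673 shRING1B array exceeded the first in 33 of 39 members, with a median of 0.12 beside 0.07 for other genes. It was below the first in 6 of the 39, beside 1742 of 5876 other protein-coding genes above 5.8. The second A673 shGFP array exceeded the first in 32 of 39, with a median of 0.14 beside -0.01 for other genes. That array was below the first in 7 of the 39, beside 3075 of the 5876 others. The median of the 39 levels was 7.29 and 7.48 on the A673 shRING1B arrays, against 7.65 and 7.60 on the A673 shGFP arrays.

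In SK-ES1, whose hairpin arrays took no part in choosing the stretches, no member was called at an adjusted p under 0.05. Over all genes limma called 10 of 14884 (0.0672%). At an unadjusted p under 0.05 there were 2 of the 39 members above 5.8, DPYD and FRRS1, against 4.67% of protein-coding genes above 5.8. Of the 39, 25 (64.1%) had a lower mean in shRING1B, with a median of -0.04, beside 57.2% and -0.02 for other protein-coding genes above 5.8. Arrays did not overlap in 12 members that were lower and 3 that were higher, where the background was 22.1% and 14%.

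FRRS1 read 6.44 and 6.82 in SK-ES1 shRING1B cells, against 6.98 and 7.22 in SK-ES1 shGFP cells. The difference of -0.47 (95% interval -0.83 to -0.11) did not pass the test (limma adjusted p = 0.5703). DPYD, which starts the breakdown of uracil and thymine, read 6.71 and 6.60 in shRING1B cells, against 7.06 and 6.95 in shGFP cells. Its difference was -0.35 (interval -0.61 to -0.08, limma adjusted p = 0.5703), while in A673 it was 0.10 with overlapping arrays. Both genes had their shRING1B arrays below their shGFP arrays in SK-ES1. CDC14A and TRMT13, the members with the next smallest p, differed by -0.30 and -0.25 in SK-ES1 and did not pass.

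FRRS1 thus had one of the larger differences in both lines. Its SK-ES1 difference did not pass the test, however, and its A673 difference took part in choosing the stretches. 4 others with large A673 differences were closer to 0 in SK-ES1. SNX7 read 8.38 and 8.34 in SK-ES1 shRING1B cells, against 8.49 and 8.48 in SK-ES1 shGFP cells, a difference of -0.12 with an interval of -0.51 to 0.27. PTGFRN differed by -0.02 with an interval of -0.30 to 0.26, and DENND2C by -0.13 with an interval of -0.42 to 0.16. CD58 differed by 0.00 with an interval of -0.44 to 0.43. These intervals still allow a modest change either way. They rest on the spread pooled over the 4 groups of both lines. In SK-ES1 both shRING1B arrays lay below both shGFP arrays for SNX7 and DENND2C, as in 22.1% of protein-coding genes above 5.8. For PTGFRN and CD58 the SK-ES1 arrays overlapped.

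By role the SK-ES1 differences were small as well. Of the 11 genes of RNA, ribosome and transcription 7 were lower in SK-ES1 shRING1B cells, with a median of -0.08, and of the 5 growth and GTPase genes above 5.8 3 were lower, with a median of -0.10. The 3 neuronal genes above 5.8 were all higher in A673 shRING1B cells. In SK-ES1 shRING1B cells all 3 were lower, with a median of -0.07 and none past the test. Over the 6 neuronal genes at any level 2 were lower in A673 shRING1B cells and 4 in SK-ES1 shRING1B cells. The runs of members above 5.8 along the chromosome were shallow. From PTBP2 to DPH5 10 of 12 genes were lower with a median of -0.08, and from TRIM33 to PTGFRN all 6 were lower with a median of -0.08, whereas only 3 of the 7 from DDX20 to HIPK1 were. On the higher side TMED5, a cargo receptor between the endoplasmic reticulum and Golgi, read 7.99 and 7.95 in shRING1B cells, against 7.82 and 7.89 in shGFP cells. ALG14, which anchors an enzyme of N-glycan synthesis, read 6.77 and 6.89 in shRING1B cells, against 6.67 and 6.73 in shGFP cells. Both differed by 0.12, their arrays did not overlap, and neither passed the test (limma adjusted p = 0.8905 and 0.8887).

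Across the 39 members the SK-ES1 and A673 hairpin differences correlated at r = 0.2, beside 0.184 for the other protein-coding genes above 5.8. This describes genes and not replicates, and the values share one normalization. The surroundings in SK-ES1 lay at the same small values, with medians of -0.01 for the 15 genes between the stretches, -0.04 for the 25 before EVI5, -0.02 for the 25 after GDAP2 and 0.01 for the 472 others of chromosome 1.

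The lines themselves differed in many members. The comparison of SK-ES1 with A673, averaged over both hairpins, uses the same 4 A673 arrays as the choice of the stretches. In this balanced design its error is uncorrelated with that of the A673 hairpin difference where both A673 groups spread equally. The members' median SD was 0.0884 in A673 shRING1B and 0.116 in A673 shGFP, so the calls are not fully free of the choice. Of the 39 members above 5.8, limma called 29 at an adjusted p under 0.05, of which 24 were lower and 5 higher in SK-ES1. Over protein-coding genes above 5.8 the shares called were 30.4% lower and 26% higher, 56.5% together. Over all 65 members, 34 were called lower and 9 higher, where all protein-coding genes gave 25.1% and 20.5%. The median difference of the 39 was -0.38, with 30 below 0, beside -0.03 and 52.9% for the other protein-coding genes above 5.8. All 4 SK-ES1 arrays lay below all 4 A673 arrays in 17 members and above them in 5, with a background of 29.4% and 24.8%.

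**Figure D4:**
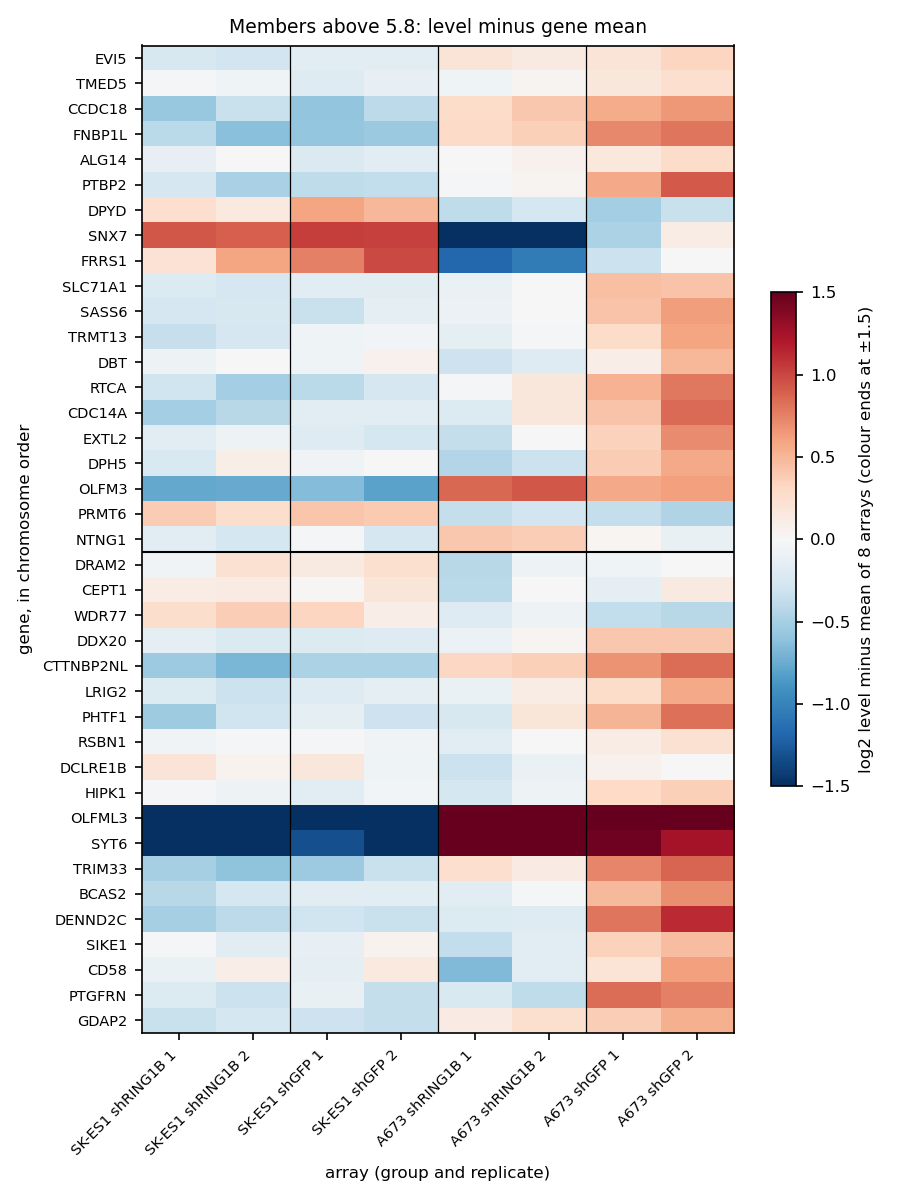
Log2 level minus the gene's mean over 8 arrays (colour, ends at 1.5 either way) for the 39 members above 5.8 in chromosome order (rows) on each array (columns, SK-ES1 before A673, shRING1B before shGFP), with a line between the stretches. The A673 shGFP columns are the highest for most members, and SYT6 and OLFML3 are low on every SK-ES1 array.

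The largest line differences were those of OLFML3 and SYT6, which are neighbours. OLFML3, a secreted matrix protein, read 6.79 and 6.39 in SK-ES1 shRING1B and 6.83 and 6.15 in SK-ES1 shGFP cells, against 10.20, 10.19, 10.32 and 10.42 on the A673 arrays. No SK-ES1 array came near an A673 array, and the log2 difference was -3.74 (limma adjusted p = 2.1e-08). SYT6 read 4.73 to 5.05 on the SK-ES1 arrays, against 7.60 to 8.10 on the A673 arrays, a difference of -3.08 (adjusted p = 5.19e-09 by limma). SYT6 and CDC14A averaged below 5.8 in SK-ES1 and FRRS1 did in A673, so 3 of the 29 calls set a low signal against a higher one. Of the members lower in SK-ES1, OLFM3 followed at -1.49 (limma adjusted p = 1.98e-07), with 6.41 to 6.55 in SK-ES1 and 7.78 to 8.14 in A673. CTTNBP2NL, a cortactin-binding protein, and FNBP1L had line differences of -1.09 and -1.08, with every SK-ES1 array below every A673 array, and TRIM33 differed by -0.99.

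The members called higher in SK-ES1 were SNX7, FRRS1, DPYD, PRMT6 and WDR77. SNX7 read 8.34 to 8.49 in SK-ES1, against 5.59 to 7.56 in A673, a difference of 1.94 (limma adjusted p = 7.65e-07). FRRS1 differed by 1.28 and DPYD by 0.75. PRMT6 read 8.94 to 9.10 in SK-ES1, against 8.23 to 8.39 in A673, a difference of 0.73 (limma adjusted p = 3.39e-05). WDR77 differed by 0.53 (limma adjusted p = 6.25e-04). For these 5 genes the arrays of the lines did not overlap. SNX7 and FRRS1 had both the lowest A673 hairpin differences of their stretch and the highest line differences of the 39. Both values use the A673 arrays, so a lower A673 shRING1B level also raises the line difference. That of SNX7 was 1.22 under shGFP and 2.67 under shRING1B, and that of FRRS1 1.04 and 1.52. Across the 39 members the A673 hairpin and line differences correlated at r = -0.306, with a rank correlation of 0.009.

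Among the genes with large A673 hairpin differences, the line difference varied. DENND2C was lower in SK-ES1 by a log2 difference of -0.76 (limma adjusted p = 8.04e-05) and PTBP2 by -0.74 (1.72e-04), PTGFRN by -0.50 (0.0012) and BCAS2 by -0.49 (0.0011). CD58 differed by 0.01, DPH5 by -0.10 and SIKE1 by -0.13, none of which passed. Under shGFP the members' median line difference was -0.58 with 31 of 39 below 0, and under shRING1B it was -0.18 with 23 of 39 below 0, beside -0.01 and -0.04 for the others above 5.8. Both use the A673 arrays that chose the stretches and are a description.

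By role, 7 of the 11 genes of RNA, ribosome and transcription were called lower in SK-ES1 and 2 higher, beside 30.4% and 26% of protein-coding genes above 5.8. Among members above 5.8, 4 of the 5 growth and GTPase genes were called lower, and 3 of the 4 cell cycle genes. Of the 6 metabolism genes above 5.8 3 were called lower and 1 higher. All 3 neuronal genes above 5.8 were called lower. Over the 6 neuronal genes at any level 3 were called lower and 2, PLPPR5 and NHLH2, higher. Of the 4 cell surface genes above 5.8 2 were called lower, and of the 3 vesicle genes 1 lower and 1 higher. SIKE1, the 1 immune gene above 5.8, was not called. Per stretch, EVI5-NTNG1 had 13 lower and 4 higher of 20, and DRAM2-GDAP2 11 lower and 1 higher of 19. Between the stretches 6 of 15 genes were called lower and 0 higher, with a median of -0.21. The 25 genes before EVI5 had 8 lower and 4 higher with a median of 0.04, and the 25 after GDAP2 had 4 lower and 6 higher with a median of 0.00. The other 472 genes of chromosome 1 had 121 lower and 115 higher with a median of -0.02.

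At the ends of the stretches, EVI5, a GTPase-activating protein for Rab proteins, read 6.60 to 6.73 in SK-ES1, against 7.02 to 7.21 in A673, a difference of -0.42 (limma adjusted p = 0.0015). GDAP2 was lower too, with 6.16 to 6.25 against 6.63 to 7.04, a difference of -0.63 (limma adjusted p = 1.23e-04), while its dimmer probe set differed by 0.09. NTNG1 differed by -0.35 (limma adjusted p = 0.0086), with overlapping arrays. DRAM2, a lysosomal membrane protein of autophagy, differed by 0.28 and did not pass (limma adjusted p = 0.0552).

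The 26 members at or below 5.8 gave a mixed picture. In A673 18 were lower in shRING1B cells, with a median of -0.06 (lowest -1.25, highest 0.62). Both shRING1B arrays were below both shGFP arrays in 11 and above them in 2, where protein-coding genes at or below 5.8 gave 24.3% and 20.2%. TSPAN2, a tetraspanin best known from oligodendrocytes, read 4.78 and 5.24 in A673 shRING1B cells, against 5.92 and 6.59 in A673 shGFP cells, a difference of -1.25. It was measured only at low signal in SK-ES1, with 4.05 and 4.10 in shRING1B cells, against 3.77 and 3.90 in shGFP cells. PLPPR5 and PALMD differed by -0.88 and -0.65 in A673 at low levels. MAB21L3 was the highest, with 6.01 and 6.49 in A673 shRING1B cells, against 5.50 and 5.76 in A673 shGFP cells. PLPPR4 differed by 0.32 and CD2 by 0.27.

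In SK-ES1 11 of these 26 were lower in shRING1B cells, with a median of 0.06, and 0 were called. At an unadjusted p under 0.05 there were BCAR3, an adaptor of integrin signalling, and TMIGD3, at 0.39 and 0.44, beside 9.28% of protein-coding genes at or below 5.8. Between the lines 10 were called lower in SK-ES1 and 4 higher, with backgrounds of 19.9% and 15.1%. ARHGAP29, a GTPase-activating protein for RHOA, differed by -2.69 (limma adjusted p = 4.59e-08), the sphingosine phosphate receptor gene S1PR1 by -1.57 (limma adjusted p = 7.54e-07) and TSPAN2 by -1.68 (limma adjusted p = 8.54e-06). DENND2D, another Rab exchange factor, was higher in SK-ES1 by 1.14.

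Around the level of 5.8, the members just above were CDC14A at 5.85 and TRMT13 at 6.03, with A673 differences of -0.66 and -0.51. Just below were ST7L at 5.51 and TRIM45 at 5.43, with A673 differences of -0.56 and -0.39.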

How the data were processed

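Gene expression was measured on 8 arrays, 2 in each of 4 groups, which were taken from the cell line and hairpin in the labels. Per the labels' protocols, an Affymetrix kit for whole transcripts labelled the total RNA. The authors deposited log2 levels per probe set, and RMA and limma were used per the submitters' processing notes, with no versions. RMA's quantile step hides a change shared by most genes. The array version and build are not given in the sources used here. Scanner files were not used, so signal over background was not measured, and the number of arrays limits precision.

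The platform's annotation names 1 gene for 16098 of 48144 probe sets and several for 0, and 32046 have no name here. All 16098 matched RefSeq's annotation of GRCh38.p14 by Entrez ID, which gave gene types and gene order, and its promoter table gave the sequences. The highest probe set per gene left 14884 genes. 1 gene of the stretches is not reported here. The number of columns left unused was 0.

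limma 3.58.1 in R 4.3.3 fitted 4 group means to all 8 arrays, with 4 residual and 6 prior degrees of freedom. Two-sided p-values were adjusted (Benjamini-Hochberg) over 14884 genes, and a gene was called at an adjusted p under 0.05. Intervals are 95% from the same fit. The fit was tested on simulated data. The members, gene groups, markers and tests were chosen with earlier results of these data known. Genes were named by a rule: the lowest and highest members per comparison and stretch, the 2 highest of each gene group, and genes at the edges and the level threshold. BCAR3, TMIGD3, S1PR1, ARHGAP29, DENND2D and the members named only by run were chosen after their values were seen. Alternatives covered normalization, variance model, probe set, level threshold, the genes tested and each array left out.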

Additional observations from a re-analysis of the deposited data

Results flagged for a closer look

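In 8 members the hairpin difference ran in opposite directions in the lines, with every array of a pair on its side, and this difference between lines was not tested. These are 12.3% of the 65, beside 8.82% of all protein-coding genes. The value given is the SK-ES1 difference minus the A673 difference on the log2 scale. It was 0.8064 for EXTL2, with SK-ES1 at 6.41 and 6.51 in shRING1B against 6.39 and 6.33 in shGFP cells, and A673 at 6.23 and 6.60 against 6.94 and 7.29. It was 0.3125 for ALG14, 0.3368 for TMED5 and -0.17 for PRMT6, whose A673 shRING1B arrays read 8.33 and 8.39 against 8.32 and 8.23 in shGFP. Among members at or below 5.8 it was 0.4861 for TRIM45, 1.4855 for TSPAN2, 0.6338 for BCAR3 and 0.7397 for TMIGD3. In each but PRMT6 the A673 shRING1B arrays were the lower pair and the SK-ES1 shRING1B arrays the higher. The A673 side of these values took part in choosing the stretches.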

How the results depend on the processing

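In SK-ES1 0 of the 39 members above 5.8 were called under every setting run. The 2 members above 5.8 with an unadjusted p under 0.05 were 1 to 2 with 1 array left out, being 1 without SK-ES1 shRING1B replicate 1, SK-ES1 shRING1B replicate 2 or SK-ES1 shGFP replicate 2, and 0 of 32 members above 6.5. For the lines, the 5 members called higher were 3 of 32 above 6.5, and the 39 members gave 26 to 31 calls over the other settings. ALG14 lost its line call without A673 shRING1B replicate 2 (limma adjusted p = 0.0743), A673 shGFP replicate 2 (0.106), SK-ES1 shGFP replicate 1 (0.0848), SK-ES1 shRING1B replicate 1 (0.0875) or SK-ES1 shGFP replicate 2 (0.0555), and with the quantile step repeated (0.0639). EXTL2 lost it without A673 shRING1B replicate 2 (0.0934), A673 shGFP replicate 2 (0.111) or any SK-ES1 array (0.0523 to 0.0847), and TRMT13 without A673 shGFP replicate 2 (0.0502). DRAM2 was called in 6 settings, including without A673 shRING1B replicate 2 (0.02) and SK-ES1 shRING1B replicate 1 (0.0356). The cause was not tested. The A673 median of the 39 lay between -0.51 and -0.35, with CEPT1 alone changing sign, in 1 of 14 settings. No called value changed sign, while some SK-ES1 and line differences near 0 that were not called did. Over all genes the SK-ES1 calls, 10 as reported, were 34 with a trended, robust variance and 18 with only genes above 5.8 tested, and 2 to 4 with 1 SK-ES1 array left out. No paired analysis was run because the labels carry no replicate numbers. Replicates 1 and 2 name the order in which a group's arrays are listed, which does not show that arrays belong together. With 2 arrays a group, small changes stay undetected.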
